A study of Mus musculus with 2 samples.

Results

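The E2f transcription factors and the pocket proteins set the pace of entry into S phase. In the textbook account, E2f proteins bind DNA as dimers with DP proteins such as that encoded by Tfdp1, and the pocket proteins Rb1, Rbl1 and Rbl2 hold them in a repressive state until cyclin-dependent kinases phosphorylate the pocket protein and release them. E2f1, E2f2 and E2f3 are described as activators, E2f4 and E2f5 as partners of the pocket proteins in repression, and E2f6 and E2f7 as repressors that act without a pocket protein. Their targets include the replication licensing factors, the nucleotide synthesis enzymes and several of the E2f genes themselves.

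Expression of 10 genes of this family, E2f1 to E2f7, Rb1, Rbl1 and Tfdp1, was described among 18131 genes in single cells of the mouse cardiac neural crest region. The members were taken by gene symbol, and E2f1 was set beside its relatives because the Cre strain of both libraries is designated B6.Cg-E2f1Tg(Wnt1-cre)2Sor/J, which denotes an E2f1 allele holding a Wnt1-cre transgene. Embryos were C57BL/6 at E9.5, and tissue from the otic placode level to the somites just behind it was dissociated without sorting. Genotypes were Prdm6+/+; Wnt1-Cre2; ZsGreen1 for the library called WT and Prdm6f/f; Wnt1-Cre2; ZsGreen1 for that called KO, so the Cre transgene and the Cre-dependent ZsGreen1 reporter were common to both. Cre is driven by a Wnt1 promoter, so deletion of the floxed Prdm6 gene, which encodes a histone methyltransferase, is limited to the Wnt1 lineage while all cells of the dissected region were sequenced. In the cross that the methods describe, the Cre allele came from 1 parent only, and WT embryos were littermates of KO embryos. A map from cells to embryos is not given in the sources used here.

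Each genotype was sequenced as 1 library, and no replicate check stands behind any difference reported here. Genotype and library preparation cannot be told apart. The authors report batch effects between the conditions, seen by eye in their cell embeddings, and corrected the neighbour graph for them. The UMIs used here carry no such correction. Intervals are 95% exact intervals that cover counting error of the unique molecular identifiers (UMIs) only. Levels are UMIs of a gene per 1000000 UMIs of the library (CPM), which for 3′ UMI counts need no division by gene length, although 3′ capture can still differ between genes. In WT, 11958 cells held 20781384 UMIs at a median of 1597 per cell, and in KO, 9765 cells held 18936857 at a median of 1703. They shared 26 cell barcodes, and those cells held 0 E2f1 UMIs. Prdm6 itself had 104 UMIs in WT and 59 in KO, or 5.00 and 3.12 CPM. The libraries also differed in the share of cells with an Xist UMI, 19.1% in WT and 37.7% in KO, in the share with a Y-linked UMI, 16.5% and 8.71%, and in the non-coding RNA Gm42418, at 1091 and 2507 CPM.

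E2f1, the founding activator E2f (GRCm38 chr2:154559407-154569892, minus strand), stood apart from its family. It had 55 UMIs in the WT library, a level of 2.65 CPM (1.99 to 3.44), and 266 UMIs in the KO library, a level of 14.0 CPM (12.4 to 15.8). The intervals of the 2 levels were far apart. The KO level was 5.31-fold the WT level, a log2 ratio of 2.41 (1.98 to 2.85). Among the 10513 genes with at least 200 UMIs over both libraries, this was rank 1 of the KO over WT ratios, whose median was -0.06 and whose 5th to 95th percentiles ran from -0.44 to 0.30. The next genes in that order were the histone genes Hist1h1b, with a log2 ratio of 1.82, and Hist1h2ae, with 1.71. Besides the strain name, E2f1 was chosen by this measured difference between the KO and WT levels, and its relatives by name. With 55 UMIs in WT, it passed the filter of 200 UMIs only through its 266 UMIs in KO. Its rank thus restates the choice, and its values are a description and not a test.

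E2f1 transcripts were sparse in both genotypes. A UMI was found in 55 of the WT cells, or 0.460%, and in 264 of the KO cells, or 2.70%. Once cells were thinned to 1000 UMIs, with 1361 WT and 125 KO cells left out as shallower than that, the shares were 0.264% and 1.48%. No WT cell held more than 1 E2f1 UMI, and 2 KO cells held 2. The difference was thus spread over many cells with 1 molecule each. No cell class in this tissue is known to lack E2f1, so the share due to free RNA could not be set beside these figures.

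**Figure D1:**
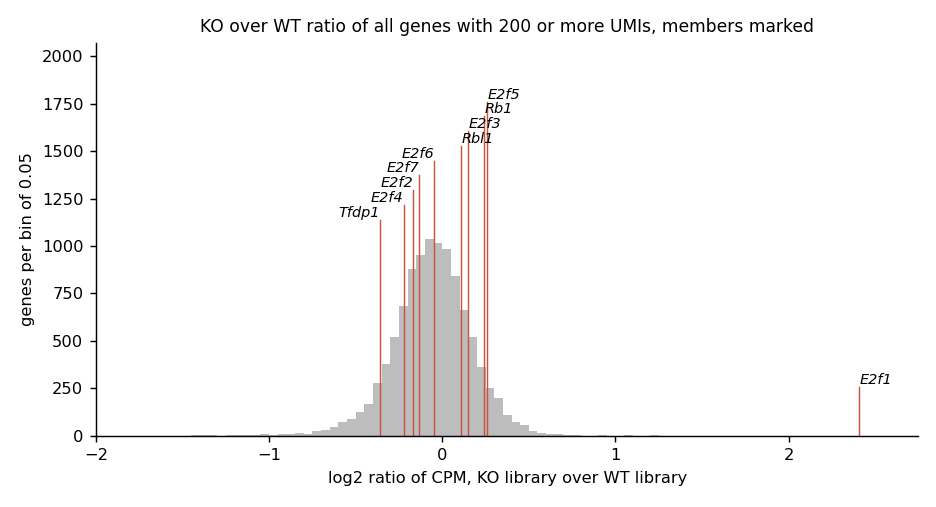
Histogram of the log2 ratio of CPM in the KO library over the WT library for the 10513 genes with at least 200 UMIs, in bins of 0.05, with the 10 E2f, pocket protein and DP genes as vertical lines. E2f1 lies at 2.41, far to the right of the bars, and the other members lie between -0.36 for Tfdp1 and 0.26 for E2f5. Of the genes, 2 with ratios below -2 lie outside the bins and are not drawn. The heights of the lines only separate the names.

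The other activators moved little. E2f2 (chr4:136172394-136196057) had 370 UMIs at 17.8 CPM in WT and 300 UMIs at 15.8 CPM in KO, a log2 ratio of -0.17 (-0.39 to 0.06). E2f3 (chr13:29906575-29986063) had 66.6 CPM in WT and 73.9 CPM in KO, a log2 ratio of 0.15 (0.04 to 0.26). In the WT library E2f1 was by far the scarcest of the activators, while in the KO library its interval overlapped that of E2f2, 14.1 to 17.7 CPM. Of all E2f1, E2f2 and E2f3 UMIs together, E2f1 made up 3.04% (2.30 to 3.94) in WT and 13.5% (12.1 to 15.1) in KO. Summed, the activators stood at 87.0 CPM in WT and 103.8 CPM in KO, a log2 ratio of 0.25 (0.16 to 0.35), a difference in which E2f1 had the largest share in CPM.

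Among the repressor E2fs, the pocket protein partners E2f4 and E2f5 differed in opposite directions. E2f4 (chr8:105297663-105305370) was at 139 CPM in WT and 119 CPM in KO, a log2 ratio of -0.22 (-0.30 to -0.14). E2f5 (chr3:14578641-14606309) was at 85.0 CPM in WT and 101.8 CPM in KO, a log2 ratio of 0.26 (0.17 to 0.35). E2f6, which acts with Polycomb proteins (chr12:16810963-16839742), was at 34.6 and 33.5 CPM, a log2 ratio of -0.05 (-0.20 to 0.11). E2f7, an atypical E2f that binds DNA without a DP partner (chr10:110745439-110787384), was at 31.3 and 28.6 CPM, a log2 ratio of -0.13 (-0.30 to 0.03).

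Rb1, the retinoblastoma gene (chr14:73183673-73325822), was at 16.5 CPM in WT and 19.5 CPM in KO, a log2 ratio of 0.24 (0.03 to 0.46). Its relative Rbl1, which encodes p107 (chr2:157145893-157204534), was at 28.4 and 30.6 CPM, a log2 ratio of 0.11 (-0.06 to 0.28). Tfdp1, the DP partner of the E2f proteins (chr8:13338751-13378448), was the most abundant member and was lower in the KO library. It had 3958 UMIs at 190 CPM in WT and 2811 UMIs at 148 CPM in KO, a log2 ratio of -0.36 (-0.43 to -0.29), or 1.28-fold lower.

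By a rule of 1.2-fold in either direction, 2 of the 10 members, E2f1 and Tfdp1, were past it, where 22.4% of all genes with at least 200 UMIs were. The count is close to that background, but it includes E2f1, which was chosen by its ratio. Of the 9 members without E2f1, only Tfdp1 was past the threshold. In the higher direction 6.46% of genes passed, and in the lower direction 15.9%, a split that became 10.4% and 10.6% under trimmed mean of M values scaling and 10.9% and 10.1% under median of ratios scaling. E2f5 lay just inside the threshold at 1.197-fold and Rb1 at 1.18-fold, and both were past it under those scalings, which shift every ratio up by 0.06 or 0.07. The count was then 4 members, beside 21% of all genes. Once cells were thinned to 1000 UMIs the Rb1 ratio was 0.016. The 10 genes summed to 613 CPM in WT and 586 CPM in KO, a log2 ratio of -0.07 (-0.10 to -0.03), near the median of all genes, and to -0.09 (-0.13 to -0.06) without E2f1.

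**Figure D2:**
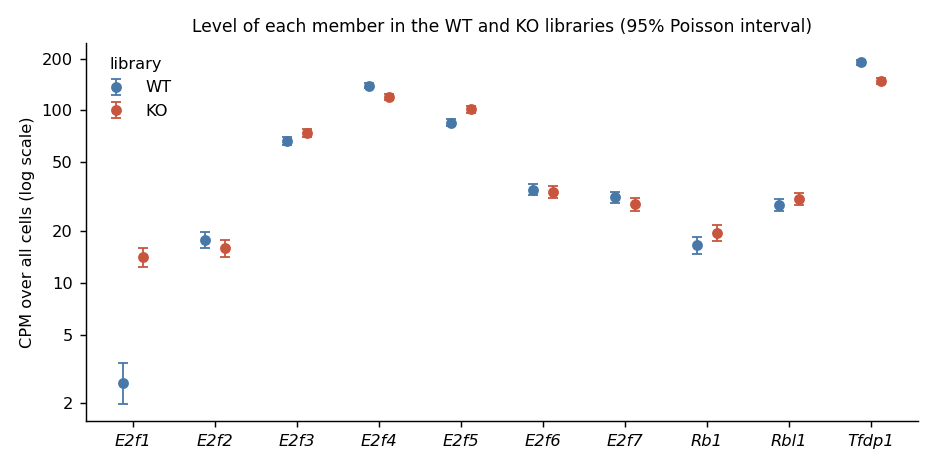
CPM of each member over all cells of the WT library (blue) and the KO library (red) on a log scale, with 95% Poisson intervals. The pairs of points lie close together for 9 genes, and for E2f1 the KO point at 14.0 CPM sits beside the level of E2f2 while the WT point lies at 2.65 CPM.

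Over both libraries the order of the levels was Tfdp1 at 170 CPM, E2f4 at 130, E2f5 at 93.0, E2f3 at 70.1, E2f6 at 34.1, E2f7 at 30.0, Rbl1 at 29.5, Rb1 at 18.0, E2f2 at 16.9 and E2f1 at 8.08 CPM. The intervals of E2f7 and Rbl1 overlapped, as did those of Rb1 and E2f2. The other neighbours in the order had intervals that did not overlap. The DP partner and the pocket protein partners were thus more abundant than any activator, and E2f3 was the most abundant activator.

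Several members of the family are described as E2f targets themselves, so the promoter windows of the members were searched for the E2f words TTTCCCGC, TTTCGCGC, TTTGCCGC and TTTGGCGC on both strands. RefSeq windows of GRCm38.p6 that run from 250 bases before to 50 bases after a start site were at hand for 7 of the 10 members, and 5 of these held a word. Over all 32851 windows 2.26% held one, and of the 13021 genes in the data with a window 4.12% did. E2f2 had its word 40 bases past the RefSeq start site, which itself lies upstream of the GENCODE start given above, and is not shown since the start sites differ. The 4 members with a word before the start site are shown here because they are among the genes whose level is set against the S phase genes below. Each stretch ends before the start site and reads 5′ to 3′ on the strand of the gene, with the matched word or its complement in capitals.

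E2f3 (chr13:29986064-29986094, minus strand): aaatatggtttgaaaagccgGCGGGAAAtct

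E2f7 (chr10:110745221-110745268, plus strand): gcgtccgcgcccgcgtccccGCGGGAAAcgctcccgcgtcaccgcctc

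Rbl1 (chr2:157204535-157204572, minus strand): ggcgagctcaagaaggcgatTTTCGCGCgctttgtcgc

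Tfdp1 (chr8:13338688-13338735, plus strand): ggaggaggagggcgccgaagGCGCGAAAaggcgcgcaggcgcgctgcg

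The words began 11 bases before the start site in E2f3, 198 in E2f7, 18 in Rbl1 and 43 in Tfdp1. E2f3 and E2f7 shared the word GCGGGAAA, the complement of TTTCCCGC, and Rbl1 and Tfdp1 carried TTTCGCGC in opposite orientations. A match is a description of the letters and not a bound site. The window listed for E2f1 lies inside the annotated gene, so it says nothing of the main E2f1 promoter and is not shown.

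Position in the cell cycle was read from the share of a cell's UMIs that fell in a list of 39 measured S phase genes or in a list of 52 G2/M genes, neither of which holds a member. Cells of both libraries were split into terciles of that share. The terciles are ranges of a score, not cell types, and cells near a boundary can fall on either side. The S phase list also differed between the cell classes described below, at 4565 CPM in WT cardiac muscle and 6843 CPM in WT neural tube cells. Terciles can therefore differ in cell class as well as in cycle, and the 2 were not separated. E2f7 is known to be expressed late in G1 and in S phase. Its level from the lowest to the highest S tercile was 24.0, 32.4 and 35.0 CPM, a log2 ratio of the highest over the lowest of 0.54 (0.33 to 0.75). The ratio was 0.40 (0.12 to 0.69) in WT cells alone and 0.75 (0.42 to 1.07) in KO cells alone.

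E2f1 was higher in the highest than in the lowest S tercile, with a log2 ratio of 0.68 (0.29 to 1.08) over both libraries. In WT cells its level was 1.96, 2.34 and 4.00 CPM from the lowest to the highest tercile, a log2 ratio of 1.03 (0.05 to 2.05). In KO cells it was 12.4, 13.0 and 17.2 CPM, a log2 ratio of 0.47 (0.03 to 0.91). The lowest KO tercile lay above the highest WT tercile. Compared within terciles, KO exceeded WT by a log2 ratio of 2.66 (1.88 to 3.53) in the lowest, 2.48 (1.69 to 3.35) in the middle and 2.10 (1.44 to 2.82) in the highest, all with overlapping intervals. KO cells made up similar shares of the terciles, with 31.0% of them in the lowest and 34.7% in the highest against 35.2% and 32.2% of WT cells.

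E2f2, Tfdp1, E2f6 and E2f3 were also higher in cells with more S phase transcripts. E2f2 had a log2 ratio of 0.38 (0.10 to 0.66) between the outer terciles, Tfdp1 0.28 (0.19 to 0.36), E2f6 0.24 (0.04 to 0.43) and E2f3 0.23 (0.10 to 0.36). The pocket protein partners were flat, with E2f4 at -0.01 (-0.10 to 0.09) and E2f5 at 0.03 (-0.09 to 0.15). Rb1 was flat as well at 0.01 (-0.26 to 0.27), and Rbl1 stood at 0.13 (-0.08 to 0.34), from 0.37 (0.07 to 0.67) in WT cells and -0.14 (-0.44 to 0.17) in KO cells. Of the 4 genes higher with S phase transcripts, Tfdp1 and E2f3 had whole intervals above 0 in each library, and those of E2f2 and E2f6 reached below 0 in KO cells, at 0.37 (-0.06 to 0.81) and 0.13 (-0.15 to 0.42). Past 1.2-fold higher in the highest tercile were 4 of the 10 members, E2f1, E2f2, E2f7 and Tfdp1, against 10.7% of all genes tested, and past it in the lower direction were 0 members against 18.8% of genes.

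The G2/M list gave another order. E2f2 fell from 19.2 to 13.5 CPM between the lowest and the highest G2/M tercile, a log2 ratio of -0.50 (-0.79 to -0.22), and lay below 0 with its whole interval in WT cells, -0.43 (-0.84 to -0.03), and in KO cells, -0.56 (-0.98 to -0.15). Rb1 was at 20.3 CPM in the lowest and 14.9 CPM in the highest tercile, a log2 ratio of -0.44 (-0.72 to -0.17), and E2f7 had a ratio of -0.28 (-0.49 to -0.07). Rbl1, at 0.26 (0.05 to 0.47), and E2f5, at 0.21 (0.09 to 0.32), went the other way. Within the libraries, E2f7 stood at -0.17 (-0.47 to 0.11) in WT and Rb1 at -0.37 (-0.75 to 0.00316) in KO cells, and the WT intervals of Rbl1, 0.19 (-0.11 to 0.48), and of E2f5, 0.11 (-0.06 to 0.28), held 0. Past 1.2-fold lower in the highest tercile were E2f2, Rb1 and E2f7, and 14.7% of all genes were. In the higher direction 8.53% of genes passed, and E2f1 did so with a log2 ratio of 0.40 (-0.02 to 0.81) over both libraries. That value was not held within the libraries, where it was -0.25 (-1.35 to 0.80) in WT cells and 0.21 (-0.25 to 0.68) in KO cells. KO cells, which had the higher E2f1 level, made up more of the highest G2/M tercile, with 38.5% of KO cells and 29.1% of WT cells in it.

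**Figure D3:**
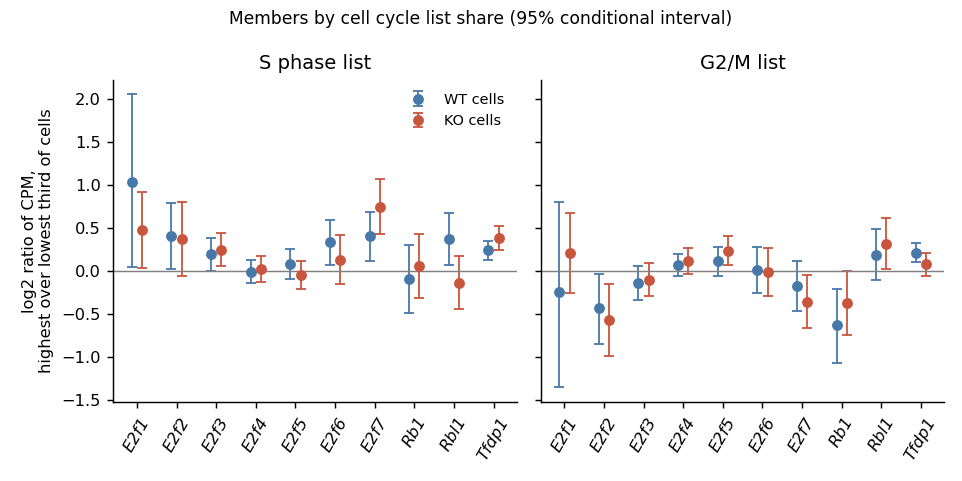
Log2 ratio of each member's CPM in the highest over the lowest tercile of cells by share of UMIs in the S phase list (left) and the G2/M list (right), for WT cells (blue) and KO cells (red) with 95% conditional intervals. On the left, E2f1, E2f3, E2f7 and Tfdp1 have whole intervals above 0 in both libraries. On the right, E2f2 has its whole interval below 0 in both. The wide WT interval of E2f1 reflects its 55 UMIs.

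Cell classes were gated by marker genes that hold no member. A cell joined the class of which it showed the most different markers, if it reached a minimum of 2 to 6 markers that depended on the class, and 32.4% of WT and 29.4% of KO cells were placed. Of 17 classes tried, 8 had at least 100 cells in each library: cardiac muscle, endothelial, erythroid, migrating neural crest, neural tube, neuron, splanchnic mesoderm and sclerotome cells. They held from 109 to 801 WT and from 104 to 661 KO cells. The median UMIs per cell lay above the library median in all 8 classes. In the migrating neural crest class, which the sample labels name as the cell type, there were 383 WT and 286 KO cells, so most cells of the dissected region were of other kinds or could not be placed.

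The KO library was higher in E2f1 in 8 of 8 classes, and in 7 of 8 with 1 more marker or with cells thinned before gating. Migrating neural crest cells held 2 E2f1 UMIs in WT and 8 in KO, or 2.26 and 10.2 CPM, a log2 ratio of 2.18 whose interval reached below 0, -0.15 to 5.45. Neural tube cells held 5 and 19 UMIs, or 3.79 and 13.5 CPM, a log2 ratio of 1.83 (0.36 to 3.61).

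Endothelial, erythroid and cardiac muscle cells were also higher in KO. Endothelial cells held 3 and 12 UMIs, or 2.70 and 11.6 CPM, a log2 ratio of 2.10 (0.21 to 4.57). Erythroid cells held 2 and 7 UMIs, or 1.81 and 13.5 CPM, a log2 ratio of 2.89 (0.50 to 6.19). Cardiac muscle cells held 4 and 11 UMIs, or 2.16 and 7.95 CPM, a log2 ratio of 1.88 (0.13 to 3.99). With 2 to 12 UMIs per class and library, these ratios cannot be told from that of the neural tube.

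Splanchnic mesoderm cells held 1 and 6 UMIs, a log2 ratio of 3.49 (0.45 to 9.01), though thinning before gating gave 12.5 CPM in WT and 0 in KO from 80 and 23 cells. Neurons held 1 and 7 UMIs, with an interval of -0.35 to 8.11 around 2.62. Sclerotome cells held 0 and 3 UMIs, both at or under the floor of 3 counts, so no ratio is given, and with 1 more marker the KO level there was 0. Across classes the WT level ran from 0 to 4.99 CPM and the KO level from 7.81 to 30.6 CPM, so every KO class lay above every WT class, although the classes rest on 0 to 5 UMIs in WT and 3 to 19 in KO. With this few UMIs the classes cannot be ordered by their ratio. All cells outside these 8 classes held 37 and 193 UMIs, a log2 ratio of 2.43 (1.92 to 2.98). These ratios share their library and are not replicates.

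**Figure D4:**
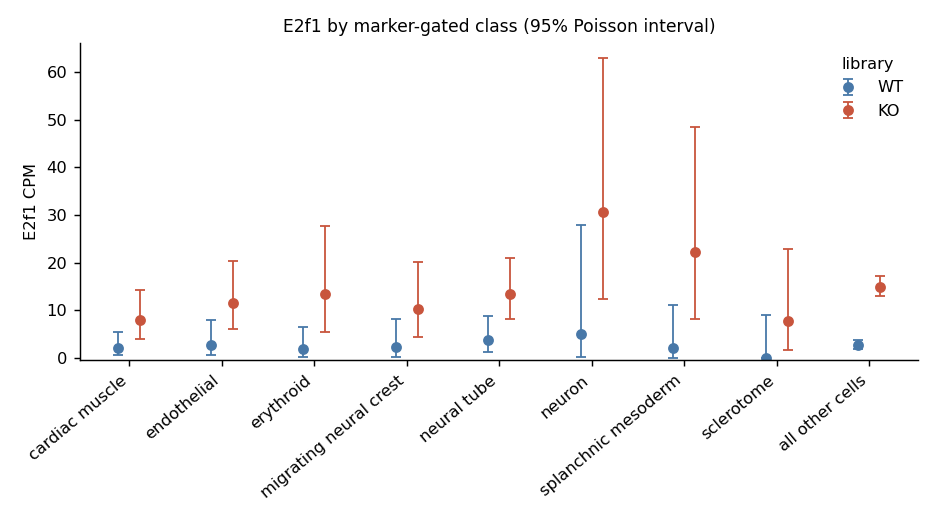
E2f1 CPM in each marker-gated class and in all other cells of the WT library (blue) and the KO library (red), with 95% Poisson intervals. Every KO point, from 7.81 to 30.6 CPM among the classes, lies above every WT point, from 0 to 4.99 CPM, and the intervals are widest in the classes with the fewest cells.

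E2f1 was also higher in KO within cells split by measures that differed between the libraries. In cells with an Xist UMI and no Y-linked UMI, E2f1 had 13 UMIs in WT and 107 in KO, a log2 ratio of 2.09 (1.26 to 3.05). In cells with a Y-linked UMI and no Xist UMI it had 8 and 17 UMIs, a log2 ratio of 2.35 (1.06 to 3.77). Cells with no UMI of the histone genes Hist1h2ae and Hist1h1b, the genes next to E2f1 in the order of ratios, gave 2.36 (1.88 to 2.87). Terciles of UMIs per cell gave 2.64, 2.18 and 2.53 from shallow to deep. In terciles of the Gm42418 share the ratio was 1.57 (0.81 to 2.32), 3.04 (2.14 to 4.10) and 2.00 (1.15 to 2.99), with KO levels of 8.66, 12.8 and 17.4 CPM and WT levels of 2.92, 1.56 and 4.36 CPM. What part the Gm42418 share has in the E2f1 level was not tested.

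The genes beside E2f1 on chromosome 2 are of interest because the Cre strain name is that of an E2f1 allele. Pxmp4, which encodes a peroxisomal membrane protein, is the nearest neighbour on the 5′ side of E2f1. It had 204 UMIs in WT and 185 in KO, a log2 ratio of -0.01 (-0.30 to 0.29). Zfp341, a zinc finger gene, had 65 and 57 UMIs, a log2 ratio of -0.06 (-0.59 to 0.48). Chmp4b, which encodes a subunit of the membrane-scission complex ESCRT-III, was at 182 and 220 CPM, a log2 ratio of 0.27 (0.21 to 0.34). On the 3′ side, Necab3 had 38 and 23 UMIs and 1700003F12Rik had 17 and 12, with ratios whose intervals held 0. Of the 5 measured neighbours none had a ratio near that of E2f1, and Actl10, also on the 3′ side, was not analysed here. In the RefSeq gene models the ends of E2f1 and Necab3 overlap by 7 bases, while the GENCODE 3′ end of E2f1, 154559407, lies just past Necab3. The 3′ reads do not tell whether an E2f1 transcript came from the wild-type allele or from the allele with the transgene.

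Of 41 pairs of a member and a class with at least 50 UMIs, 3 were past 1.5-fold, all lower in KO. Tfdp1 was lower in cardiac muscle cells, where its WT level of 156 CPM compared with a KO level of 103 CPM, a log2 ratio of -0.60 (-0.90 to -0.31). Endothelial cells also had less Tfdp1 in KO, at 148 and 96.6 CPM, a log2 ratio of -0.61 (-0.98 to -0.24). E2f3 was lower in erythroid cells, with 61 and 15 UMIs or 55.3 and 28.9 CPM, a log2 ratio of -0.94 (-1.86 to -0.11), which was -0.05 when cells were thinned to 1000 UMIs before gating. The Tfdp1 ratio also fell inside the threshold under some settings, at -0.44 in cardiac muscle cells without the top 5% of cells by UMIs, and at -0.48 with 1 more marker and -0.27 after thinning in endothelial cells. Among pairs with fewer UMIs, Rb1 was higher in KO in erythroid cells, with 12 and 16 UMIs or 10.9 and 30.8 CPM, a log2 ratio of 1.50 (0.33 to 2.71) that ran from 1.49 to 2.27 under the other gates and was picked out after its value was seen. Of all genes with at least 50 UMIs in the class, 8.07% were past 1.5-fold in either direction in cardiac muscle, 7.43% in endothelial and 11.5% in erythroid cells, and the share was 6.98% in neural tube, 7.92% in migrating neural crest, 10.7% in neurons, 12% in splanchnic mesoderm and 10.8% in sclerotome cells. The 3 pairs among 41 are near these shares. The Tfdp1 ratio was below 0 in 8 of 8 classes, from -0.05 (-0.38 to 0.29) in migrating neural crest cells to -0.61. Its whole interval lay below 0 in cardiac muscle and endothelial cells alone. The value in migrating neural crest cells is near the median of all genes over all cells, -0.06. A share of all genes below 0 in every class was not computed. E2f5 in neural tube cells had a ratio of 0.54 (0.20 to 0.89), inside the threshold, and 0.17 after thinning and 0.21 with 1 more marker.

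Levels over both libraries varied between classes far more than between genotypes for several members. E2f2 was lowest in cardiac muscle cells at 4.94 CPM and highest in erythroid cells at 40.7 CPM, an 8.24-fold range. E2f4 was also highest in erythroid cells, at 251 CPM over both libraries. E2f2 and E2f4 are known for roles in red cell production, and the erythroid class is where both peaked in each library, with E2f2 at 37.2 CPM in WT and 48.1 in KO and E2f4 at 265 and 221 CPM. E2f7 had its lowest level there in each library, at 17.2 CPM in WT and 9.62 in KO from 19 and 5 UMIs, with intervals that overlapped those of migrating neural crest cells. E2f3 was lowest in erythroid cells in KO, at 28.9 CPM, but in neurons in WT, at 39.9 CPM from 8 UMIs.

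Rb1 was highest in neurons in each library, at 65.2 CPM over both, 5.21-fold its level in sclerotome cells. The neuron level was alike in the libraries, at 64.9 CPM in WT from 13 UMIs and 65.5 CPM in KO from 15 UMIs. Rb1 is known to be needed for neurons to leave the cell cycle and survive. For the remaining members, E2f1 apart, the leading class was not the same in the libraries. E2f3 was highest in neural tube cells in WT, at 81.9 CPM, and in migrating neural crest cells in KO, at 98.3 CPM. E2f5 was highest in migrating neural crest cells in WT and in neural tube cells in KO, at 129 CPM, where the migrating neural crest level was 128 CPM. E2f6, E2f7, Rbl1 and Tfdp1 likewise changed their leading class.

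**Figure D5:**
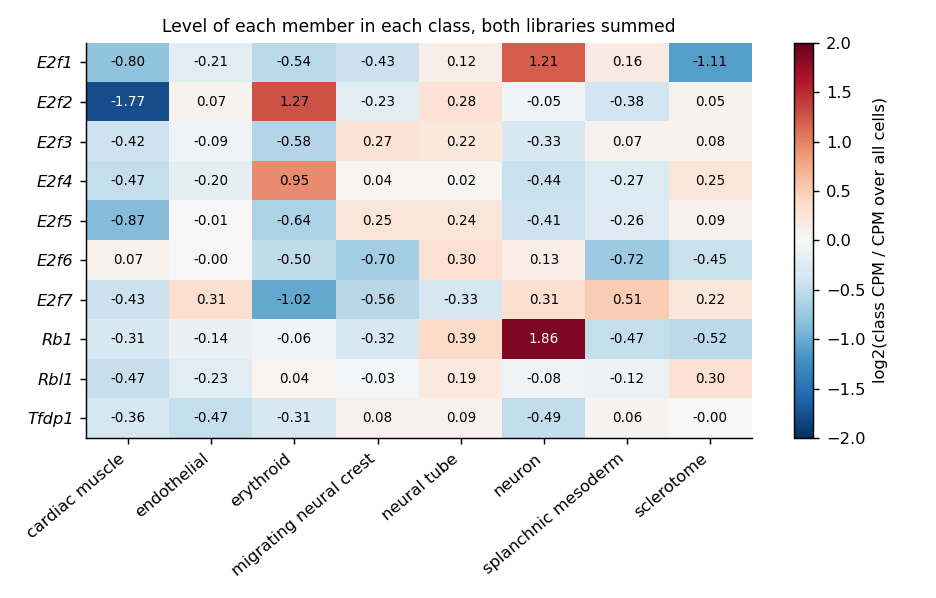
Log2 ratio of each member's CPM in a class to its CPM over all cells, both libraries summed, with red for higher and blue for lower. Rb1 in neurons stands at 65.2 CPM, and E2f2 in erythroid cells at 40.7 CPM and in cardiac muscle cells at 4.94 CPM; E2f1 values rest on 3 to 24 UMIs per class.

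For each of E2f1 and Rb1, the genes most like it were taken as the highest Pearson correlations of log2(CPM + 10) over 16 points, the 8 classes in each library, among 6293 genes with at least 1000 UMIs. Those points share libraries and markers, so the values describe these cells only. Rb1 was most like Onecut2, with r = 0.88, with Tubb3, Gabarapl2 and Elavl4 next. Onecut2 is a transcription factor of neurons and other cells, Tubb3 a neuronal tubulin and Elavl4 a neuronal RNA-binding protein, and Tubb3 and Elavl4 are among the markers that gated the neurons. E2f1 was most like Ubl5, with r = 0.87, then Tpr, Cops2, Xist and Polr2k. For E2f1 each point rested on 0 to 19 UMIs, with every KO point above every WT point. Xist, in this list, also differed between the libraries.

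Other genes of the pathway are read against the 22.4% of all genes past 1.2-fold in either direction. E2f8, the other atypical E2f, Rbl2, which encodes p130, and Tfdp2, a DP partner, had log2 ratios of KO over WT of -0.10 (-0.26 to 0.06), -0.19 (-0.53 to 0.14) and 0.04 (-0.06 to 0.13), and 0 of the 3 were past 1.2-fold. The MuvB complex, which joins pocket proteins in quiescence and the activators Mybl2 and Foxm1 in mitosis, had 1 of 7 genes past the threshold, Lin52, lower at -0.30 (-0.57 to -0.03), which the other scalings put inside it. Of 9 G1 cyclins, kinases and their phosphatase, Ccnd2 was higher, at 0.30 (0.28 to 0.33), and Ccnd3 lower, at -0.40 (-0.47 to -0.33). These D-type cyclins bind Cdk4 and Cdk6, the kinases that phosphorylate pocket proteins, and Cdk4 stood just inside the threshold at -0.26 (-0.30 to -0.21). Of the 7 inhibitors of these kinases, 4 had at least 200 UMIs and 0 of them were past it. Cdkn2a, which encodes the p16 and Arf proteins, had 1 UMI in WT and 2 in KO.

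Of 21 known E2f target genes, 0 were past 1.2-fold higher in the KO library and 1 was lower, beside 6.46% and 15.9% of all genes, and under the other scalings 1 was higher. The lower gene was Cdt1, which loads the replicative helicase, at 125 CPM in WT and 91.4 CPM in KO, a log2 ratio of -0.45 (-0.54 to -0.37). Ezh2, a Polycomb methyltransferase, at 0.25 (0.21 to 0.29), and Rrm2, a subunit of ribonucleotide reductase, at -0.25 (-0.29 to -0.20), came next. The median of the 21 was -0.02, and that of all genes was -0.06. Each target had at least 775 UMIs in each library, while the background reaches down to 200 UMIs over both. Of genes with at least 1000 UMIs over both, 17% were past 1.2-fold in either direction. Of these targets, 11 are also in the S phase list. In the whole S phase list 6 of 39 genes were higher (10 under the other scalings) and 0 lower, with a median of 0.05. In the G2/M list 8 of 52 were higher (10 under the other scalings) and 1 lower (0 under them), with a median of 0.08. Of all genes, 10.4% were higher and 10.6% lower under trimmed mean of M values scaling. The shares were 10.9% and 10.1% under median of ratios scaling. The genes for the H4K20 methyltransferases Kmt5a, Kmt5b and Kmt5c were within the threshold, 3 of 3. Methylation of H4K20 is also ascribed to Prdm6.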

How the data were processed

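Single-cell 3′ libraries of 1 WT and 1 KO cell pool were analysed, grouped by the genotype in the labels. The authors aligned reads and counted UMIs with Cell Ranger 1.3.1 against mm10 per the labels (the methods name a human genome with ZsGreen1, and 0 reporter columns were found), removed mitochondrial and ribosomal UMIs and cells outside 200 to 6000 UMIs, used a doublet caller, scaled each cell to a fixed total and took square roots. The deposited values are therefore a score, not counts. Squares divided by the cell's smallest nonzero square gave whole numbers within 0.01 for 100% of nonzero values, and these were summed as UMIs; removed genes are missing from the totals. No further doublet caller was run. The members and lists were chosen with earlier results of these data known, and the marker minimums after the spread of markers was seen. All members are named, every gene of lists up to 9 genes may be, of longer lists the 3 largest ratios, the 5 genes most like E2f1 and Rb1 (1 of which is not reported here) and the 3 protein-coding neighbours on each side of E2f1. Levels had exact Poisson intervals, ratios exact conditional intervals, and shares Clopper-Pearson intervals, in Python 3.11.15 with numpy 2.4.6 and scipy 1.17.1. The interval and scaling code was tested on simulated data. No test across cells was made. Gene positions are GENCODE vM21. Alternatives were other scalings, UMI filters, thinning, gates and terciles.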

Additional observations from a re-analysis of the deposited data

How the results depend on the processing

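The log2 ratio of E2f1 lay between 2.25 and 2.50 under all planned settings and between 2.09 and 2.41 in the 4 cell subsets added as alternatives after seeing the data, while in terciles of the Gm42418 share it ran from 1.57 to 3.04. Scaling by TMM or by a median of ratios moved the sum of the 10 members from -0.07 to -0.0056 and 0.00011 and put 4 members past 1.2-fold, E2f1, Tfdp1, E2f5 and Rb1, beside 21% of genes. With a filter of 1000 UMIs, which leaves 7 members, 1 was past it, beside 17% of genes. Thinning to 1000 UMIs gave Rb1 a ratio of 0.016. Thinned gates, with as few as 23 KO cells, gave E2f1 23.7 CPM in KO endothelial, 30.0 in KO neural tube, 0 in WT erythroid and 12.5 in WT and 0 in KO splanchnic mesoderm cells, and 1 more marker gave 0 in KO sclerotome cells, so 7 of 8 classes were then higher in KO. The G2/M ratio of E2f1 turned to -0.016 with terciles set within each library and to -0.19 in WT cells alone with their own terciles. TMM and median of ratios scaling each gave, past 1.2-fold, 1 MuvB gene higher and 0 lower, 1 E2f target higher, 10 S phase genes higher and 0 G2/M genes lower, and with no filter beyond 1 UMI in each library 1 Cdk inhibitor was higher and 1 lower. In all, 467 values stayed within their interval or count range, 47 left it, and 2 that had been past their fold changed sign. Sign changes of values not past their fold are counted in the first 2 groups. One such value is that of E2f2, at -0.17 in the main setting and 0.013 in gated cells only. No paired analysis was possible because there was 1 library per genotype, and no replicate could be left out. Thinned, E2f3 in erythroid cells stood at -0.05 and E2f5 in neural tube cells at 0.17. E2f1 has 0 to 19 UMIs per class and library, which limits every class value.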

Other observations

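Some values belong to no comparison above. The 9 classes with under 100 cells in a library, among them roof plate, floor plate, otic, pharyngeal and surface ectoderm cells, together held 444 WT and 440 KO cells. E2f1 had 2 UMIs in these WT cells and 8 in these KO cells, a log2 ratio of 1.80 with an interval of -0.52 to 5.08. One gene further out than the neighbours named by rule, Cbfa2t2, a transcriptional corepressor gene, was picked out after its value was seen. It had 1831 UMIs in WT and 1169 in KO, a log2 ratio of -0.51 (-0.62 to -0.41). Raly, an RNA-binding protein gene at the same rank on the other side, had a log2 ratio of -0.23 (-0.29 to -0.18).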
